A study of Mus musculus with 6 samples.

Results

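The genes described here encode enzymes that work inside the lysosome and proteins of its limiting membrane, in cortical cells of the mouse. They were chosen by name: 41 genes were listed, and a gene was measured where a probe set of the array named it and no other gene. This gave 40 genes on 93 probe sets, out of 18193 genes named by the array and 11821 tested. Cd63, a tetraspanin of late endosomes and lysosomes, had no such probe set and is not analysed here. The genes were 7 proteases, 11 glycosidases, 4 sulfatases, 6 proteins of lipid breakdown and cholesterol transfer, 5 genes of the neuronal ceroid lipofuscinoses and 7 measured membrane proteins.

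The samples were RNA bound to tagged ribosomes, pulled from the cortex of untreated bacTRAP mice. Such mice carry a bacterial artificial chromosome (BAC) in which the regulatory region of a driver gene expresses a tagged ribosomal protein, so that RNA under translation in the marked cells can be purified. There were 3 arrays of line ES691, driven by S100a10, and 3 of line DU9, driven by Glt25d2, each labelled as a biological replicate. Both lines were backcrossed from FVB to C57BL/6, and no age is given in the labels. The series concerns cortical pyramidal cells, and its text warns that the S100a10 BAC also marks cells that are not neurons. Each group is 1 line, so that line and marked cell type cannot be told apart.

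Lysosomal enzymes are made on ribosomes at the endoplasmic reticulum, tagged with mannose 6-phosphate in the Golgi apparatus and carried by receptors to the lysosome, where a proton pump keeps the lumen acid. There they break down proteins, glycans, sulfated sugars and lipids, and loss of a single enzyme causes a storage disease, often with death of neurons. Many of the genes share short DNA elements around CACGTG, the core of the CLEAR element to which the transcription factor TFEB and its relatives bind. Microglia and macrophages are rich in lysosomes, and some of the genes are used as their markers.

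RefSeq promoters (build GRCm38.p6), each running from 250 bases before to 50 bases after a start site, were at hand for 36 of the 41 listed genes, 39 promoters in all. CACGTG, which reads the same on both strands, occurred in 13 of these 39 promoters (33.3%), against 7.15% of all 32851 promoters in the table. The longer word TCACGTG, or its reverse complement, which contains the shorter one, occurred in 11 of 39 (28.2%), against 3.77% of all. The stretches below are the parts of the promoters around CACGTG, in capitals, for the 6 genes with more than 1 copy and for Naglu, which has 1 copy and reached 50 in the S100a10 arrays alone. Sgsh, which is not printed, also has 1 copy and also reached 50 in the S100a10 arrays alone. The Lamp2 promoter is printed whole because Lamp2 and Lamp1 encode paired proteins of the same membrane and differed in these samples.
Lamp1 (chr8:13159080-13159171, plus strand): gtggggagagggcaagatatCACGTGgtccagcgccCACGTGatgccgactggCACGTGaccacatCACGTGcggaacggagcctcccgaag
Ctsa (chr2:164833741-164833803, plus strand): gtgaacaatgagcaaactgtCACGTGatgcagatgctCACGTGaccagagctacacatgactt
Ctsd (chr7:142387900-142388077, minus strand): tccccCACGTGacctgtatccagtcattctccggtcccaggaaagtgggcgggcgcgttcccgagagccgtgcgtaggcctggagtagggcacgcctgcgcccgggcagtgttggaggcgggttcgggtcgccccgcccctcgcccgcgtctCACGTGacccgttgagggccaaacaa
Mcoln1 (chr8:3500428-3500499, plus strand): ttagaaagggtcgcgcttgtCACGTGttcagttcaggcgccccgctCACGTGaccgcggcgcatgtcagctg
Cln3 (chr7:126583332-126583405, minus strand): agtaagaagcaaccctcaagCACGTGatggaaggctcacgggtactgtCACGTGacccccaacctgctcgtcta
Gla (chrX:134601174-134601252, minus strand): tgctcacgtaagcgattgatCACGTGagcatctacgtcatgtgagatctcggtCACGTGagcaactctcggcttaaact
Naglu (chr11:101070001-101070046, plus strand): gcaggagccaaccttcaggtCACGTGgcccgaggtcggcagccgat
Lamp2 (chrX:38456411-38456710, minus strand): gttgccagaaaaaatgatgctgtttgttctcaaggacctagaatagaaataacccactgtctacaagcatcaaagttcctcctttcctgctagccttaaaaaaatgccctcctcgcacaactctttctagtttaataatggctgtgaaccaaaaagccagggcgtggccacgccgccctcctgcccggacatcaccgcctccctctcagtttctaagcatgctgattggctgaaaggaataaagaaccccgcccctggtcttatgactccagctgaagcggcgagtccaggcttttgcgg
Lamp1 held 4 copies of CACGTG close together and the Lamp2 window held 0. These letters are a description of the sequence and do not show that a factor binds there.

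The values are intensities on a linear scale, and differences are given on the log2 scale as S100a10 minus Glt25d2. A gene was called where limma gave an adjusted p under 0.05, and values under 50 were treated as too low to be read as a level. Colgalt2, the current symbol of Glt25d2, was measured at 1053, 827 and 1352 in the Glt25d2 arrays and at 11.4 to 11.7 in the S100a10 arrays. S100a10 was measured at 3126 to 3444 in Glt25d2 and at 13064 to 17898 in S100a10, so both drivers followed their labels. Markers of neurons were abundant in all 6 arrays, with a summed intensity of 100491 to 125512 over 11 genes. The 2 groups appear to have been scaled apart: the median intensity was 20.4 to 21.3 in the Glt25d2 arrays and 35.5 to 35.8 in the S100a10 arrays, and the median gene tested was higher in S100a10 by 0.56. After quantile normalization of the 6 arrays the median difference was -0.02. The difference of a lysosomal gene has to be read beside that of the median gene, and quantile-normalized values are given for the genes on which the results turn.

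Glt25d2 replicate 3 stood apart for lysosomal genes, and this has to be known before the groups are compared. Ctsb, cathepsin B, had intensities of 8664 and 7995 in Glt25d2 replicates 1 and 2 and 372 in replicate 3, against 7179, 8040 and 8647 in the S100a10 arrays. Psap, the precursor of the saposins that assist sphingolipid breakdown, was at 14891, 13691 and 615 in Glt25d2 and at 11200, 13845 and 14218 in S100a10. Lamp1, a major glycoprotein of the lysosomal membrane, was at 4995, 4742 and 372 in Glt25d2 and at 3819, 4975 and 4778 in S100a10. On the probe sets used, 5 arrays were of like height in all 3 genes and 1 was far below them. Other probe sets of Ctsb are given further below.

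This held for most of the genes. In Glt25d2 replicate 3, 34 of the 40 genes lay more than 2-fold under the average of replicates 1 and 2, and 25 lay more than 4-fold under it, while 0 were more than 2-fold above. Of all 11821 genes tested, 1716 (14.5%) were more than 2-fold below and 993 (8.40%) more than 4-fold below. The median lysosomal gene was 6.02-fold below in that array, whereas the median of all genes was 0.07 above on the log2 scale. The summed intensity of the 40 genes was 77233 and 73884 in Glt25d2 replicates 1 and 2, 12816 in replicate 3 and 72275 to 92542 in the S100a10 arrays. All 7 proteases, all 6 lipid genes, all 5 genes of the ceroid lipofuscinoses, 8 of 11 glycosidases, 2 of 4 sulfatases and 6 of 7 membrane proteins were more than 2-fold low. Ctsb was 22.4-fold low, Gaa, the acid alpha-glucosidase missing in Pompe disease, 23.2-fold, Ctsl, cathepsin L, 21.3-fold, and Grn, progranulin, 17.5-fold. Ctsf, cathepsin F, lay furthest below, at 8.80 against 302 and 297, but that value lies under 50 and its size cannot be read.

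**Figure D1:**
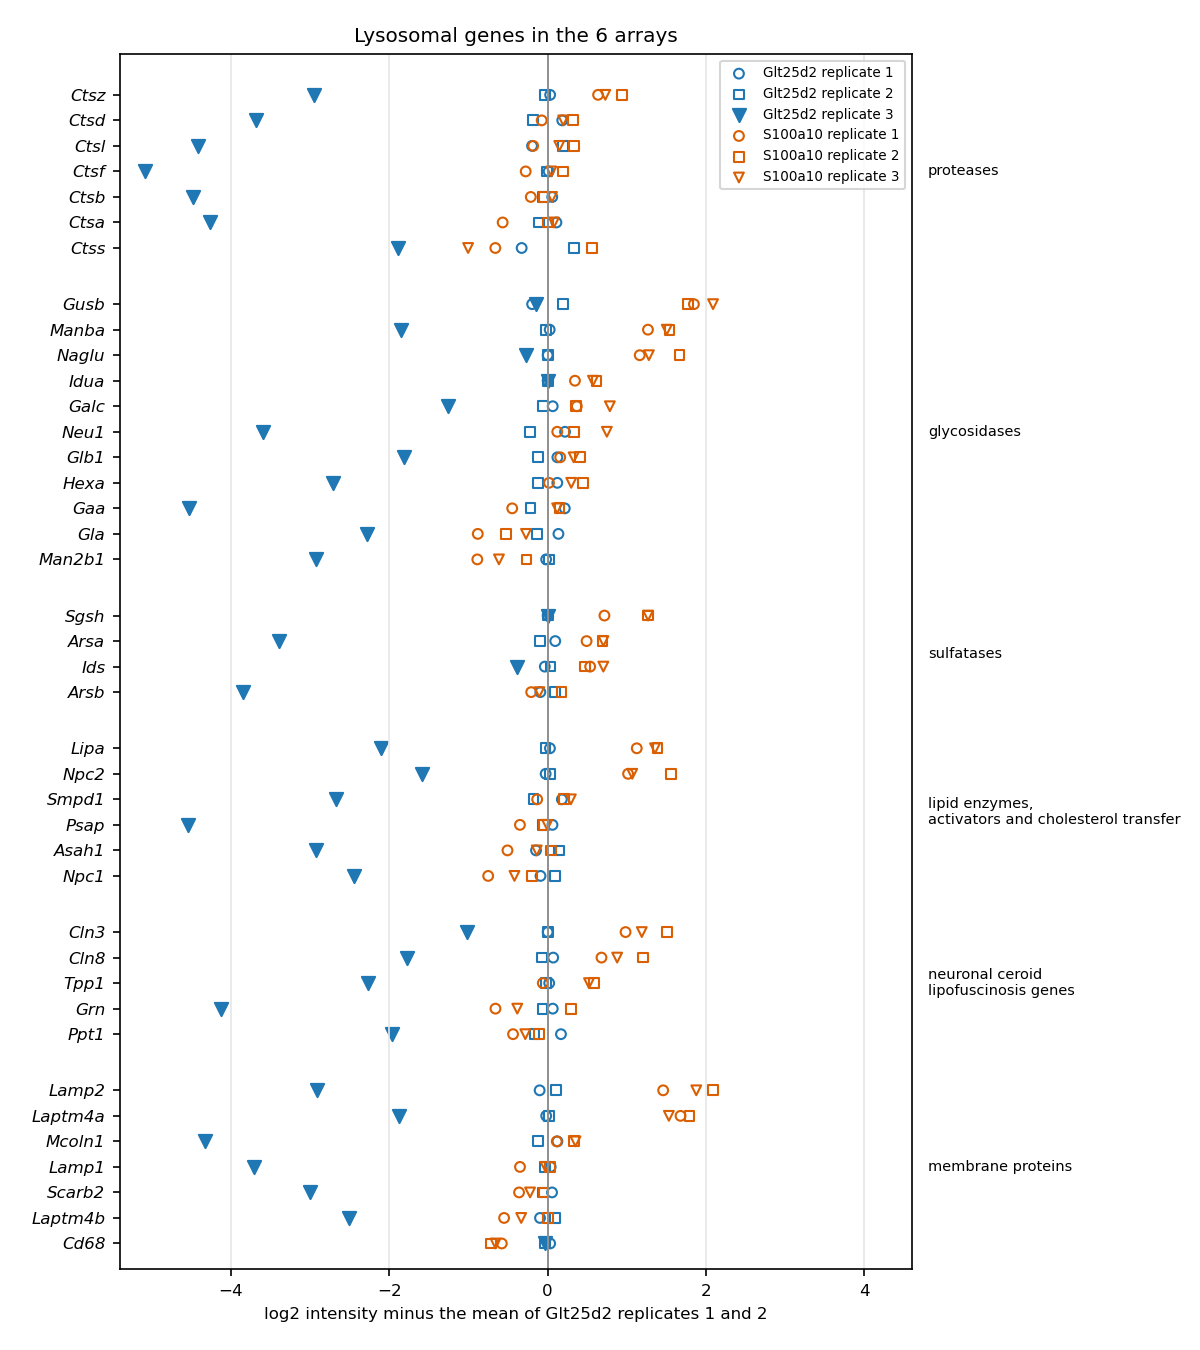
Intensity of each measured lysosomal gene in the 6 arrays, on the log2 scale, as the difference from the mean of Glt25d2 replicates 1 and 2; blue symbols are Glt25d2 arrays, orange symbols S100a10 arrays, and genes are grouped by role. The filled triangles of Glt25d2 replicate 3 lie more than 1 unit to the left for 34 of the 40 genes, while the S100a10 arrays lie clearly to the right for Lamp2, Laptm4a, Gusb, Manba, Lipa and Npc2. Gusb was under 50 in every Glt25d2 array, so its distance cannot be read as a size.

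The 6 genes that were not low in that array were Cd68, Idua, Sgsh, Ids, Gusb and Naglu. Gusb, Naglu and Sgsh were under 50 in every Glt25d2 array, where the size of a loss cannot be read. The same limit holds for Cln3, which was under 50 there and is counted among the 34. Of the 36 genes with a mean of at least 50 in both groups, 33 were more than 2-fold low and 25 more than 4-fold. Idua was listed at 183 and Sgsh at 33.4 in all 3 Glt25d2 arrays, and identical values of this kind were found in at least 2 Glt25d2 arrays for 5 of the 40 genes and for 22.1% of all genes tested, against 0.161% in S100a10. Cd68 was identical in replicates 2 and 3. How identical values arose is not known, so the lack of a loss in Idua and Cd68 is uncertain. Ids, the sulfatase missing in Hunter syndrome, was at 7624, 8017 and 5978 on the probe set used, but its other kept probe set read 655, 518 and 285. For Arsb, arylsulfatase B, the probe set used read 1675, 1904 and 124, whereas another read 69.0 and 65.5 in replicates 1 and 2 and was higher in replicate 3. Of all 67 kept probe sets of the lysosomal genes, 57 were more than 2-fold low in Glt25d2 replicate 3.

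Genes that work with the lysosome without being made at the endoplasmic reticulum did not share the low array. Of 17 subunits of the lysosomal proton pump, the 7 that span the membrane (such as Atp6ap1 at 7700, 7713 and 710) were all more than 2-fold low, and 0 of the 10 that do not span it were (Atp6v1a was at 10940, 12281 and 13562). Of 17 genes of sorting to the lysosome, all 7 whose proteins are made at the endoplasmic reticulum were low (M6pr, a mannose 6-phosphate receptor, was at 1156, 975 and 103), and 0 of the 10 adaptor and retromer subunits made in the cytosol were. These splits were made after the values had been seen. Of 20 measured chaperones and translocation factors of the endoplasmic reticulum, 19 were low, with a summed intensity of 79521, 80546 and 15482 in Glt25d2 replicates 1, 2 and 3. The proteasome, which breaks down proteins in the cytosol, had 0 of 22 subunits low and sums of 209750, 215017 and 224548. The summed intensity of the neuronal markers in that array was 104054, against 100491 and 104053 in the other Glt25d2 arrays.

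**Figure D2:**
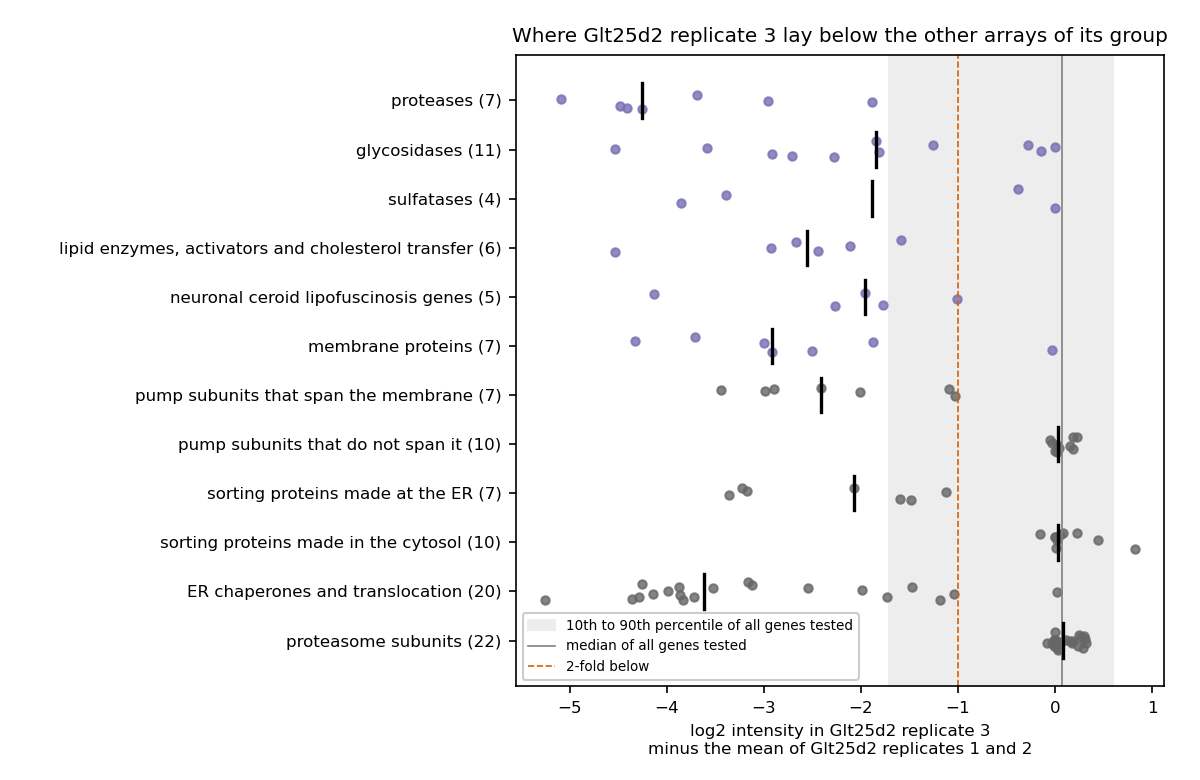
Intensity in Glt25d2 replicate 3 minus the mean of Glt25d2 replicates 1 and 2, on the log2 scale, for each gene of the lysosomal groups (purple) and of comparison groups (grey), with the number of genes in brackets; black bars are medians, the grey band spans the 10th to 90th percentile of all genes tested, and ER stands for endoplasmic reticulum. Groups made at the ER lie mostly left of the 2-fold line, with 6 lysosomal genes and 1 ER gene as exceptions, and the cytosolic groups lie near 0.

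Of the 40 genes, a smaller share was called higher in S100a10 than of all genes tested, and the counts turned on Glt25d2 replicate 3 and on the scaling. With all 6 arrays, 11 genes (27.5%) were higher in S100a10 and 1 (2.5%) was lower, against 44.7% and 4.59% of all genes tested. Without Glt25d2 replicate 3, 15 genes were higher (37.5%) and 3 lower (7.5%), against 55.8% and 6.34%. After quantile normalization 3 were higher and 1 lower with all arrays, against 18.7% and 19% of all genes, and 7 were higher (17.5%) and 9 lower (22.5%) without Glt25d2 replicate 3, against 24.1% and 23.7%. Values of the 2 groups did not overlap for 17 genes (63.8% of all genes), and for 20 without Glt25d2 replicate 3 (77.6%). The median difference of the 40 genes was 1.25 with all arrays and 0.20 without that array, when the median of all genes was 0.56 and 0.51. Thus the median lysosomal gene stood 0.69 above the median gene with the array and 0.32 below it without. All 28 genes that were not called with all arrays were more than 2-fold low in Glt25d2 replicate 3, as were 6 of the 12 that were.

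The filter on low values also bears on these counts. Gusb, Naglu, Sgsh and Cln3 were under 50 in all 3 Glt25d2 arrays and were tested only because S100a10 was above 50, so they had to differ and their p-values are not given. Over the other 36 genes, 7 were higher and 1 lower with all arrays, and 11 were higher and 3 lower without Glt25d2 replicate 3. After quantile normalization 1 was higher and 1 lower with all arrays, and 5 were higher and 9 lower without Glt25d2 replicate 3. The shares of all genes given above include genes that entered through 1 group only. None was computed for a mean of at least 50 in both groups, so these counts cannot be called few or many. For the 4 genes a difference is given as a bound against 50, valid for the deposited scaling only.

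Across 3 fits (all arrays, without Glt25d2 replicate 3, and without it after quantile normalization), 5 of these 36 genes were higher in S100a10 each time: Lamp2, Laptm4a, Npc2, Lipa and Manba. Cd68 was lower each time, and no other of the 36 was called in all 3. The 3 fits use the same arrays and do not repeat each other independently. The share of all genes called in all 3 was not counted. Of the 5, only Laptm4a also passed after quantile normalization of all 6 arrays (adjusted p = 0.029), with adjusted p-values of 0.053 for Lamp2, 0.059 for Npc2, 0.11 for Manba and 0.15 for Lipa. Gusb and Naglu were called too, but they entered only through S100a10.

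**Figure D3:**
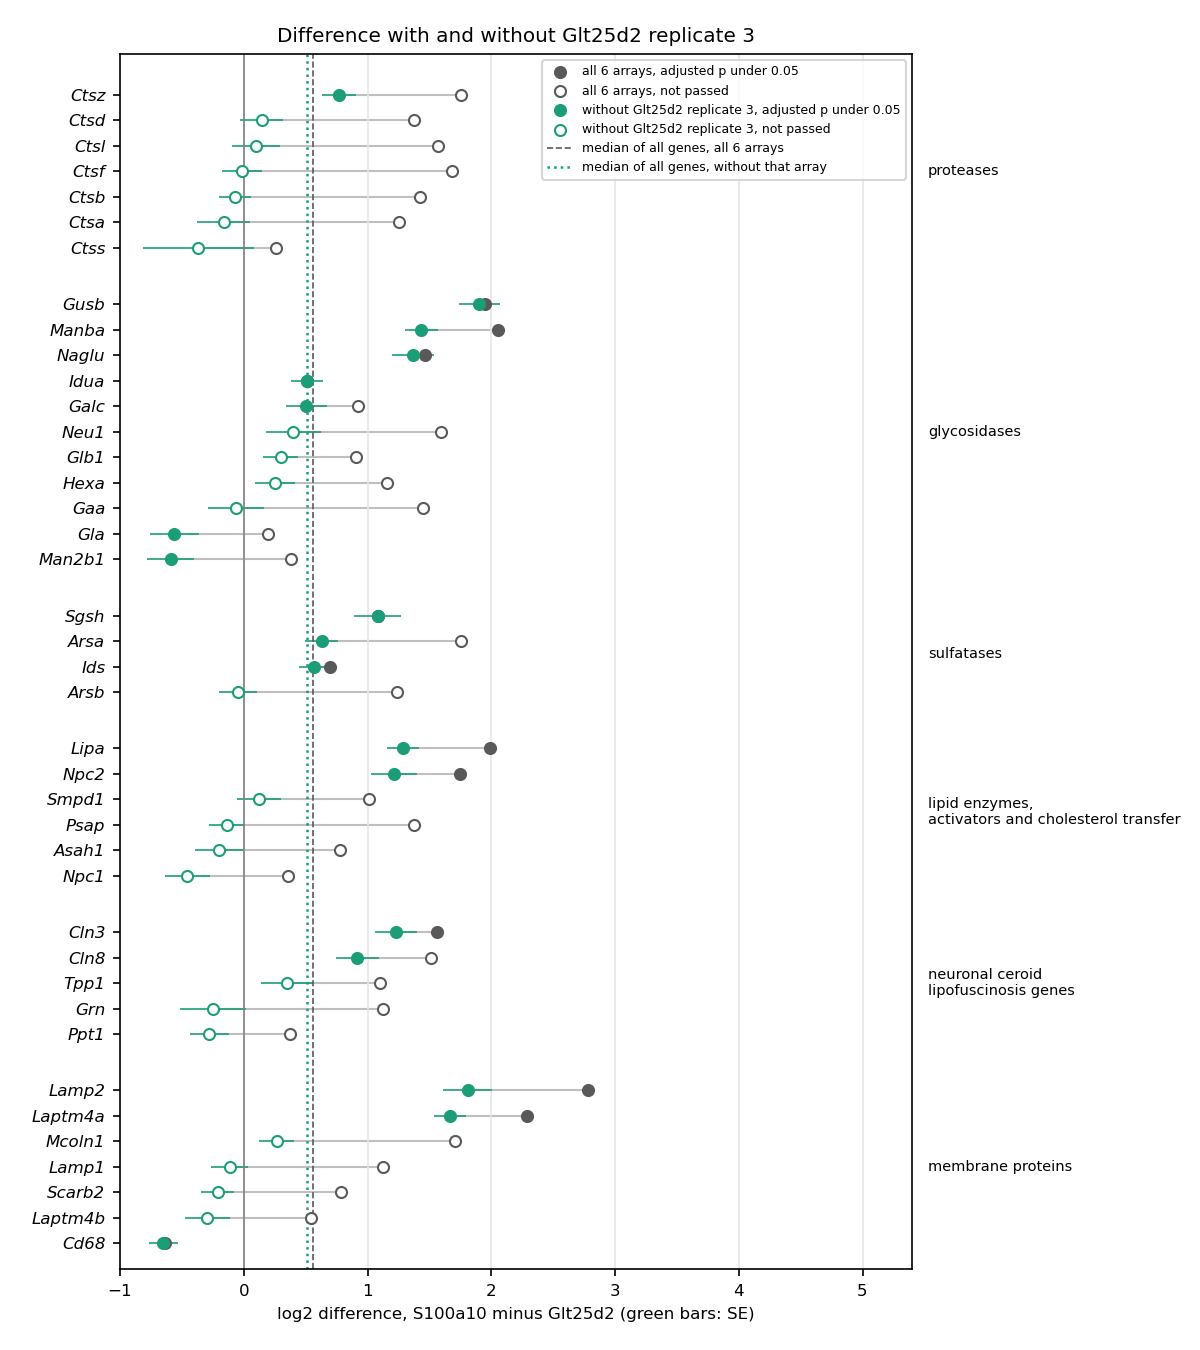
Difference between the lines on the log2 scale, S100a10 minus Glt25d2, for each measured lysosomal gene with all 6 arrays (grey) and without Glt25d2 replicate 3 (green, bars show the SE); filled symbols have an adjusted p under 0.05 in limma, and vertical lines mark the median of all genes at 0.56 and 0.51. With all arrays 32 of the 40 genes lie right of the line and without the array 13 do, and Lamp2, Laptm4a and Gusb stay furthest right. Gusb, Naglu, Sgsh and Cln3 were under 50 in every Glt25d2 array and entered only through S100a10, so their places cannot be read as sizes.

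Among the membrane proteins, Lamp2, a heavily glycosylated protein needed for fusion of autophagosomes with lysosomes, was higher in S100a10. It was measured at 1048, 1206 and 149 in Glt25d2 replicates 1, 2 and 3 and at 3089, 4788 and 4128 in S100a10. The lowest S100a10 array lay above the highest Glt25d2 array. The difference was 2.78 ± 0.83 (SE, 3 against 3 arrays, adjusted p = 0.037 in limma) and 1.81 ± 0.20 (adjusted p = 2.8e-04) without Glt25d2 replicate 3, and 1.40 (adjusted p = 0.0017) without it after quantile normalization. A second probe set of Lamp2 read 722, 867 and 75.2 in Glt25d2 and 2430, 3394 and 2677 in S100a10. Its other kept probe sets differed less: the brighter read 153, 247 and 9.37 against 262, 426 and 243, with groups that overlapped, and the dimmer read 11.4 to 81.4 against 99.3 to 115. Without Glt25d2 replicate 3 their differences were 0.63 and 0.89. Lamp1, whose promoter holds the 4 copies of CACGTG shown above, differed by -0.11 ± 0.15 without Glt25d2 replicate 3 (adjusted p = 0.53), so that the paired membrane proteins gave different results in the same samples; the difference between them was not tested.

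Laptm4a, a small membrane protein of late endosomes and lysosomes, was at 589, 604 and 162 in Glt25d2 and at 1907, 2063 and 1722 in S100a10. The groups did not overlap, and the S100a10 arrays were close to each other. It was higher by 2.29 ± 0.53 (adjusted p = 0.016) and by 1.67 ± 0.13 (adjusted p = 5.1e-05) without Glt25d2 replicate 3, and these were 1.73 and 1.16 after quantile normalization. Its paralogue Laptm4b was at 4222, 4828 and 794 in Glt25d2 and at 3083, 4518 and 3581 in S100a10, with a difference of -0.29 ± 0.18 without that array (adjusted p = 0.19). Scarb2, the receptor that carries glucocerebrosidase to the lysosome, differed by -0.21 (adjusted p = 0.21), and Mcoln1, a calcium channel of the lysosomal membrane, by 0.27 (adjusted p = 0.14). Scarb2 and Laptm4b were called lower only without that array after quantile normalization, at -0.56 and -0.59.

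Cd68, a heavily glycosylated lysosomal protein used as a marker of macrophages, was the gene lower in S100a10. It was at 98.0, 93.8 and 93.8 in Glt25d2 and at 64.2, 58.5 and 60.7 in S100a10, with groups that did not overlap. The difference was -0.64 ± 0.09 (adjusted p = 0.0022) and -0.65 (adjusted p = 0.0025) without Glt25d2 replicate 3, and -1.53 after quantile normalization of all arrays. Cd68 had identical values in Glt25d2 replicates 2 and 3, so its SE may be too small. All its values were less than 2-fold above 50, and its direction was opposite to that of the 6 called markers of microglia and macrophages.

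Among the glycosidases, Manba, beta-mannosidase, was at 70.1, 67.7 and 19.2 in Glt25d2 and at 166, 200 and 195 in S100a10. It was higher by 2.05 ± 0.53 (adjusted p = 0.022), and by 1.44 ± 0.13 (adjusted p = 1.2e-04) without Glt25d2 replicate 3, which was 0.61 (adjusted p = 0.013) after quantile normalization. Gusb, beta-glucuronidase, was at 22.3, 29.3 and 23.1 in Glt25d2 and at 92.1, 87.6 and 109 in S100a10. This is at least 1.92-fold higher in S100a10, and a second probe set read 19.0, 18.1 and 8.55 against 86.9, 106 and 103. Naglu, which removes N-acetylglucosamine from heparan sulfate, was at 26.0, 26.0 and 21.5 in Glt25d2 and at 58.3, 82.5 and 63.1 in S100a10. This is at least 1.34-fold higher. Idua, which removes iduronic acid from glycosaminoglycans, was at 183 in each Glt25d2 array and at 232, 281 and 272 in S100a10. Its difference of 0.51 (adjusted p = 0.011) was less than that of the median gene, and it was -0.27 after quantile normalization. Since its Glt25d2 values were identical, its SE may be too small.

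The other 7 glycosidases were not called with all arrays. Without Glt25d2 replicate 3, Galc, which degrades galactosylceramide of myelin, was higher by 0.50 (adjusted p = 0.033), close to the median gene, and it was -0.23 (adjusted p = 0.33) after quantile normalization. Man2b1, lysosomal alpha-mannosidase, was at 498 and 511 in Glt25d2 replicates 1 and 2 and at 272, 419 and 329 in S100a10. It was lower in S100a10, with a difference of -0.59 ± 0.19 (adjusted p = 0.030). Gla, the alpha-galactosidase missing in Fabry disease, was at 87.5 and 72.5 in Glt25d2 replicates 1 and 2 and at 43.2, 55.3 and 65.9 in S100a10. Its difference of -0.56 ± 0.20 was also a call (adjusted p = 0.042), and Glt25d2 replicate 3 was at 16.4. After quantile normalization the differences of Man2b1 and Gla without that array were -1.21 and -1.38. With that array in, Man2b1 and Gla had differences of 0.38 and 0.20 and were not called. Hexa, Glb1, Gaa and Neu1, which remove sugars from gangliosides, glycogen and glycoproteins, had differences from -0.06 (Gaa) to 0.40 (Neu1) without that array and did not pass the test.

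Of the sulfatases, Sgsh, heparan N-sulfatase, was at 33.4 in each Glt25d2 array and at 54.9, 80.3 and 80.4 in S100a10, which is at least 1.42-fold higher on the deposited scale. Ids had the values given above in Glt25d2 and 11339, 10813 and 12724 in S100a10. Its difference was 0.70 ± 0.15 (adjusted p = 0.011), little above the median gene. After quantile normalization the adjusted p of Ids was 0.059. The other kept probe set of Ids differed by 0.47 with all arrays (adjusted p = 0.26 in limma over all kept probe sets). Arsa, the arylsulfatase missing in metachromatic leukodystrophy, was at 309, 271 and 27.6 in Glt25d2 and at 407, 468 and 472 in S100a10. It was higher by 0.63 (adjusted p = 0.0054) without Glt25d2 replicate 3 and was not called with all arrays. After quantile normalization without that array its difference was -0.015 (adjusted p = 0.94). Arsb differed by -0.05 (adjusted p = 0.81) without that array on the probe set used. Its other kept probe set, the one that was not low, read 126, 149 and 150 in S100a10. That probe set was higher in S100a10 by 0.93 with all arrays (adjusted p = 0.0051 in limma over all kept probe sets) and by 1.07 without Glt25d2 replicate 3. The 2 probe sets of Arsb thus gave different results.

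Npc2 and Npc1 act together to move cholesterol out of the lysosome, and their values parted. Npc2, the soluble carrier, was at 1344, 1393 and 454 in Glt25d2 and at 2765, 4036 and 2867 in S100a10. It was higher by 1.74 ± 0.47 (adjusted p = 0.027) and by 1.21 ± 0.18 (adjusted p = 0.0012) without Glt25d2 replicate 3, which was 0.81 (adjusted p = 0.013) after quantile normalization. A second probe set of Npc2 read 474, 548 and 155 against 1638, 1953 and 1630. Npc1, the membrane partner, was at 81.2, 92.1 and 15.9 in Glt25d2 and at 51.4, 75.3 and 64.6 in S100a10. It differed by -0.46 ± 0.18 without that array (adjusted p = 0.062), and by -1.28 (adjusted p = 0.0014) without it after quantile normalization. The difference between Npc2 and Npc1 was not tested.

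Lipa, the acid lipase that frees cholesterol and fatty acids from lipoproteins, was at 94.9, 91.2 and 21.6 in Glt25d2 and at 203, 243 and 238 in S100a10. It was higher by 1.99 ± 0.60 (adjusted p = 0.037) and by 1.29 ± 0.13 (adjusted p = 1.9e-04) without Glt25d2 replicate 3, which was 0.52 (adjusted p = 0.024) after quantile normalization. All 3 S100a10 arrays lay above all Glt25d2 arrays, by more than 2-fold. The sphingolipid genes did not follow: without that array Psap differed by -0.13, Asah1, acid ceramidase, by -0.20, and Smpd1, acid sphingomyelinase, by 0.12, with adjusted p-values of 0.45, 0.39 and 0.58. After quantile normalization without that array Asah1 was called lower, at -0.66 (adjusted p = 0.031).

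Among genes of the neuronal ceroid lipofuscinoses, storage diseases of childhood in which neurons accumulate lipofuscin, Cln3 was at 44.1, 44.1 and 21.8 in Glt25d2 and at 87.1, 125 and 100 in S100a10. This membrane protein of the lysosome was at least 2.06-fold higher in S100a10 on the deposited scale. Cln8, a protein of the endoplasmic reticulum that helps lysosomal enzymes leave it, was at 306, 278 and 85.6 in Glt25d2 and at 468, 671 and 536 in S100a10. Its groups did not overlap, and it was higher by 0.92 ± 0.17 (adjusted p = 0.0033) without Glt25d2 replicate 3, against an adjusted p of 0.056 with it. The other kept probe sets of Cln8 differed by 1.23 and 0.28 without that array. With all arrays their adjusted p-values were 0.028 and 0.14 in limma over all kept probe sets. Tpp1, a tripeptidyl peptidase, differed by 0.35 without that array, Ppt1, which removes palmitate from proteins, by -0.28, and Grn by -0.25, and these 3 did not pass the test. The other kept probe sets of Grn went the other way, at 0.26 and 0.64. After quantile normalization without that array Cln8 no longer passed (adjusted p = 0.24), and Ppt1 was lower, at -0.79 (adjusted p = 0.0079).

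Of the 7 proteases, limma called 0 with all arrays (0 also at an unadjusted p under 0.05), and their median difference of 1.43 became -0.01 without Glt25d2 replicate 3. Ctsd, cathepsin D, the main aspartyl protease of the lysosome, was at 1902, 1474 and 130 in Glt25d2 and at 1589, 2088 and 1918 in S100a10. Ctsl was at 2373, 3121 and 128 against 2397, 3416 and 3011, and Ctsa, cathepsin A, at 1363, 1170 and 66.0 against 851, 1268 and 1334. Without that array their differences were 0.15, 0.10 and -0.16, and those of Ctsb and Ctsf were -0.07 and -0.01, with adjusted p-values of 0.49 to 0.95. With SEs of 0.13 to 0.21, small differences in either direction were not detectable. The other kept probe sets of Ctsb were lower in S100a10 without that array, at -0.61, -0.57 and -0.49. After quantile normalization without that array Ctsf was called lower, at -0.68 (adjusted p = 0.019). Ctsz, cathepsin Z, was at 819, 784 and 103 in Glt25d2 and at 1246, 1540 and 1327 in S100a10. It alone of the proteases was called without Glt25d2 replicate 3, higher by 0.77 ± 0.13 (adjusted p = 0.0024), and it was not called after quantile normalization. The other kept probe sets of Ctsz differed less without that array, by 0.55 and 0.17.

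Ctss, cathepsin S, a protease of microglia and other antigen-presenting cells, varied between the arrays of both groups. It was at 673, 1061 and 228 in Glt25d2 and at 535, 1245 and 421 in S100a10, so that replicate 2 was the highest array in both groups. The difference was -0.37 ± 0.45 without Glt25d2 replicate 3 (adjusted p = 0.50). Of 10 tested markers of microglia and macrophages, 4 were highest in Glt25d2 replicate 2, 6 in S100a10 replicate 2 and 2 in both. These 2 were Csf1r, at 241, 262 and 57.6 in Glt25d2 and at 108, 265 and 121 in S100a10, and C1qb, at 78.3, 159 and 27.4 and at 86.9, 218 and 134. Laptm5, a lysosomal membrane protein of blood-derived cells, was at 141, 231 and 70.5 and at 215, 501 and 280. These genes were named after their values were seen.

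**Figure D4:**
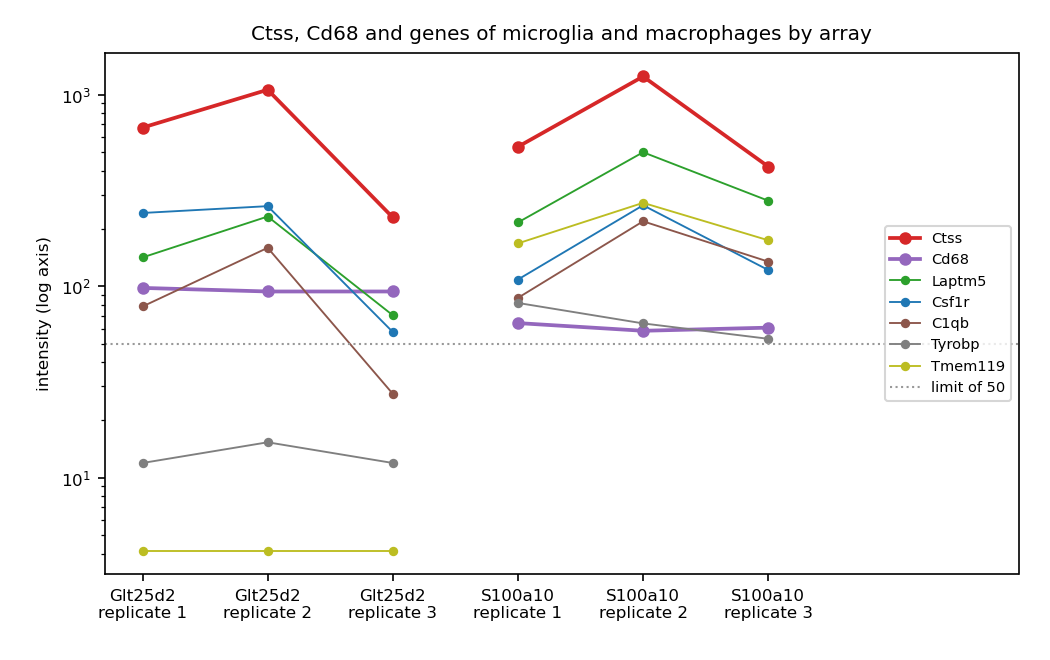
Intensity (log axis) of Ctss and Cd68 beside Laptm5 and 4 marker genes of microglia and macrophages in each of the 6 arrays; lines join arrays of a group for reading only, since replicates have no order. Ctss, Laptm5, Csf1r and C1qb are highest in replicate 2 of each group, while Cd68 stays between 93.8 and 98.0 in Glt25d2 and between 58.5 and 64.2 in S100a10.

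Markers of other cell types differed between the lines and stand beside every gene named as higher in S100a10. Of 16 listed markers of fibroblasts and mural cells, 13 were tested, and 12 were higher and 1 lower in S100a10; their summed intensity was 793 to 1013 in Glt25d2 and 25650 to 30968 in S100a10. Of 19 listed markers of microglia and macrophages, 10 were tested and 6 were higher in S100a10, with sums of 413 to 734 and 975 to 1424. P2ry12, Itgam and Trem2 were among the 9 that did not reach 50 in either group. Astrocyte markers had 4 of 11 higher and 2 lower, oligodendrocyte markers 1 of 10 higher and 2 lower, and endothelial markers 1 of 5 higher and 3 lower. Neuron markers had 4 of 11 higher and 1 lower. Of all genes tested, 44.7% were higher and 4.59% lower. After quantile normalization the counts were 12 and 1 for fibroblasts and mural cells, 5 and 0 for microglia and macrophages and 3 and 2 for astrocytes. They were 0 and 4 for oligodendrocytes, 0 and 4 for endothelium and 4 and 3 for neurons, against 18.7% and 19% of all genes. The part of these cells in the lysosomal differences was not tested. In RNA from pooled cells, more cells of a type and more RNA per cell cannot be told apart.

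The rest of the lysosome was read from 86 further genes, of which 77 were tested. With all arrays 24 were higher (31.2%) and 1 was lower, against 44.7% and 4.59% of all genes tested, and without Glt25d2 replicate 3 the counts were 37 and 3, against 55.8% and 6.34%. Of the 70 with a mean of at least 50 in both groups, 19 were higher and 1 lower with all arrays, and 30 and 3 without that array. No share of all genes was computed under that filter. Among soluble hydrolases, 8 of 19 were higher. Scpep1, a serine carboxypeptidase, was at 647, 785 and 104 in Glt25d2 and at 2871, 4241 and 3290 in S100a10, a difference of 3.19 (adjusted p = 0.020). Ctsc, the dipeptidyl peptidase cathepsin C, was at 18.5, 20.7 and 9.70 against 159, 164 and 101, at least 2.76-fold higher, and entered only through S100a10.

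Of the other membrane proteins 2 of 17 were higher: Ctns, the cystine transporter, at least 1.45-fold, which entered only through S100a10, and Tmem192 by 0.75 (adjusted p = 0.037). Without Glt25d2 replicate 3, 8 of 17 were higher and 2 lower. Of the pump, Atp6v0e, a small membrane subunit, was at 296, 347 and 150 in Glt25d2 and at 1498, 1969 and 1630 in S100a10, higher by 2.76 (adjusted p = 0.0013). Atp6v1g1 was higher by 0.76 (adjusted p = 0.0016) and Atp6v1h lower, at -0.48 (adjusted p = 0.027), so 4 of 17 subunits were higher and 1 lower. After quantile normalization 2 were higher and 5 lower, and after median centring 1 and 7. Of 17 sorting genes 5 were higher, among them Gga1 by 0.90 (adjusted p = 0.0018) and Cln6, which entered only through S100a10. After quantile normalization limma called 0 sorting genes higher (1 at an unadjusted p under 0.05) and 1 lower, and after median centring it called 6 lower. Of all genes tested, 18.7% were higher and 19% lower after quantile normalization, and 16.6% and 31.8% after median centring. The 6 sorting genes (35.3%) were near that last share, and the 7 pump subunits lower after centring were 41.2%. Both cytosolic inhibitors and secreted ones were on the list of cathepsin inhibitors, where Cstb was higher by 0.86 (adjusted p = 0.0010) and Cst6 by 0.80 (adjusted p = 0.0063). After quantile normalization Cstb was called and Cst6 was not (adjusted p = 0.98).

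Of the regulators on the list, 3 of 4 were higher in S100a10 as deposited. Tfeb, the main activator of lysosomal genes, was at 65.4 in each Glt25d2 array and at 140, 138 and 116 in S100a10, higher by 1.0 (adjusted p = 8.9e-04). Since its Glt25d2 values did not vary, its SE may be too small. Tfe3, its relative, was higher by 0.63 (adjusted p = 0.0049). After quantile normalization the differences were 0.07 and -0.04 with adjusted p-values of 0.70 and 0.80, so that neither call held on that scale. Without Glt25d2 replicate 3, the 13 tested lysosomal genes with CACGTG in the promoter had a median difference of 0.15, from -0.56 (Gla) to 1.37 (Naglu), and the 22 without it a median of 0.38, from -0.65 (Cd68) to 1.90 (Gusb). Naglu, Cln3 and Sgsh with the word and Gusb without it entered only through S100a10. Their differences cannot be read as sizes, so the upper ends of both ranges cannot be read, and both medians include such genes. As computed, the ranges overlap almost wholly, and genes on both sides of 0 occur with and without the word.

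Within S100a10, the first replicate was the lowest for 34 of the 40 lysosomal genes, against 3749 of all 11821 genes tested. The distance was small beside that of Glt25d2 replicate 3: the median gene lay 0.34 below the mean of the other S100a10 arrays on the log2 scale, and 0 of the 40 genes were more than 2-fold below.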

How the data were processed

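RNA from ribosome pull-downs was labelled after a 2-cycle amplification from 15 ng, per the labels' protocols, and hybridised to Affymetrix arrays. The authors deposited linear intensities made with GCRMA, according to the submitters' processing notes, which name no version. Of 45101 probe sets, 34945 named 1 gene. Intensities were log2-transformed with no pseudocount. A probe set was used if its mean reached 50 in either group, and the brightest such probe set by mean log2 stood for its gene. The lines were compared with limma 3.58.1 (lmFit, eBayes, R 4.3.3, 2-sided), adjusting by Benjamini-Hochberg over 11821 genes with a threshold of 0.05. The fit was tested on simulated data. Each array was left out in turn, and filters, floor, pseudocount, probe sets, prior, block, quantile normalization and median centring were varied. The genes and lists were chosen with earlier results of these data known. Values in every array were due for genes called with a difference of at least 1 in size or lower in S100a10; the others were due by difference, range or count. In other lists, up to 2 called genes were named in each direction. Genes named outside this rule were picked once their values were known. The precision is limited by 3 arrays per group.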

Additional observations from a re-analysis of the deposited data

How the results depend on the processing

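The count of 11 lysosomal genes higher in S100a10 became 7 with a mean of at least 50 required in both groups, 3 after quantile normalization, 2 after median centring and 7 without Glt25d2 replicate 3 after quantile normalization, and ran from 6 to 15 when each array was left out. Over the 36 genes with a mean of at least 50 in both groups, the last 3 settings gave 1, 0 and 5 higher. Of all genes tested, quantile normalization called 18.7% higher and 19% lower, and median centring 16.6% and 31.8%. Quantile normalization without Glt25d2 replicate 3 called 24.1% of all genes higher and 23.7% lower. The 5 genes lost with any S100a10 array left out were Lamp2, Laptm4a, Npc2, Lipa and Manba. The count of 1 lower gene became 9 without Glt25d2 replicate 3 after quantile normalization and ran from 1 to 3 with arrays left out. Of the other lysosomal genes, 24 higher became 9, 7 and 11 under quantile normalization, median centring and quantile normalization without Glt25d2 replicate 3, and 16 to 37 with arrays left out; 1 lower became 7, 14 and 17, 3 without a filter, 4 with a trended prior, and 0 to 3 with arrays left out. Atp6v1h is the gene lost where that count is 0. The median difference of 1.25 became -0.26 without Glt25d2 replicate 3 after quantile normalization. The cause of these changes was not tested. Same-numbered arrays had correlations of -0.49, 0.27 and -0.26 in their deviations from the group means. These cannot decide whether same-numbered arrays were prepared together. Deviations within a group depend on each other, and Glt25d2 replicate 3 stood far apart. With the number as a replicate block, 7 lysosomal genes were higher and 1 lower, and 0 other lysosomal genes were lower.

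Signs turned in 6 genes after quantile normalization (Ctss -0.37, Gla -0.59, Idua -0.27, Man2b1 -0.38, Npc1 -0.44, Ppt1 -0.22), in 8 after median centring (Ctss -0.51, Gla -0.57, Ids -0.070, Idua -0.26, Laptm4b -0.23, Man2b1 -0.39, Npc1 -0.41, Ppt1 -0.39) and in Gla (-0.27) and Npc1 (-0.19) with values under 50 set to 50. Without Glt25d2 replicate 3 after quantile normalization 27 turned: Arsa -0.015, Arsb -0.46, Asah1 -0.66, Ctsa -0.63, Ctsb -0.30, Ctsd -0.26, Ctsf -0.68, Ctsl -0.25, Ctss -0.90, Gaa -0.41, Galc -0.23, Gla -1.38, Glb1 -0.40, Grn -0.55, Hexa -0.11, Idua -0.21, Lamp1 -0.41, Laptm4b -0.59, Man2b1 -1.21, Mcoln1 -0.22, Neu1 -0.34, Npc1 -1.28, Ppt1 -0.79, Psap -0.33, Scarb2 -0.56, Smpd1 -0.20 and Tpp1 -0.14. With each array left out, 16 genes ran through 0: Arsb (-0.046 to 1.93), Asah1 (-0.20 to 1.34), Ctsa (-0.16 to 2.02), Ctsb (-0.069 to 2.20), Ctsf (-0.012 to 2.54), Ctss (-0.37 to 0.74), Gaa (-0.060 to 2.31), Gla (-0.56 to 0.65), Grn (-0.25 to 1.85), Lamp1 (-0.11 to 1.76), Laptm4b (-0.29 to 1.01), Man2b1 (-0.59 to 0.88), Npc1 (-0.46 to 0.81), Ppt1 (-0.28 to 0.79), Psap (-0.13 to 2.16) and Scarb2 (-0.21 to 1.31). Each lowest value is that without Glt25d2 replicate 3. Values under 50, 12 of 40 genes in that array, are near background and limit the size of its differences.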
